A study of Mus musculus with 11 samples.

Results

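The endogenous opioid system was followed through 7 genes, chosen by name: the receptor genes Oprk1, Oprd1, Oprm1 and Oprl1 and the peptide precursor genes Pdyn, Penk and Pnoc. Each is read by 1 probe set that carries that symbol alone, and all 7 were among the 11963 genes tested, of 19938 genes with such a probe set. The tissue was nucleus accumbens enriched in shell from behaviourally naive male mice aged 4 to 5 months, and each of 11 Affymetrix Mouse Gene 1.0 ST arrays held the RNA of 1 mouse. The 5 mutant mice, called Rarb-null here (RARβ-null in the labels), lack the retinoic acid receptor gene Rarb, and the 6 wild-type (WT) mice were their littermates. Both groups came from heterozygous crosses on a mixed background of C57BL/6J and 129SvEms/j. The null allele is not described as limited to a tissue or an age, so a difference between adult accumbens samples cannot be placed in time or in 1 cell type, and the sources used here do not give which part of Rarb was removed. In dissected tissue, fewer cells of a type and less RNA per cell cannot be told apart. Values are log2 expression after robust multi-array analysis (RMA), differences are the Rarb-null mean minus the WT mean, each with its standard error (SE) from limma, and a gene is called at a Benjamini-Hochberg adjusted p under 0.05 over all genes tested.

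Opioid peptides are cut from larger precursor proteins and act on receptors that couple to inhibitory G proteins, which lower cyclic AMP, open inwardly rectifying potassium channels and close voltage-gated calcium channels. Pdyn encodes the precursor of the dynorphins, the main ligands of the kappa receptor encoded by Oprk1. Penk encodes the precursor of the enkephalins, which act on the delta receptor (Oprd1) and the mu receptor (Oprm1), the site of action of morphine. Pnoc encodes the precursor of nociceptin, the ligand of the receptor encoded by Oprl1. In the striatum, to which the accumbens belongs, dynorphin is made mainly by projection neurons with the dopamine receptor Drd1 and enkephalin by those with Drd2.

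The arrays followed their labels. Rarb read 9.72 to 10.01 in Rarb-null arrays and 11.70 to 11.81 in WT arrays. The series design and the titles give 5 mutants and 6 WT mice, the extraction protocol swaps these sizes, and Rarb levels matched the titles. Array medians ran from 7.08 to 7.11 in Rarb-null arrays and from 7.02 to 7.06 in WT arrays. Interquartile ranges ran from 3.378 to 3.486 in Rarb-null arrays and from 3.488 to 3.555 in WT arrays, so the mutant arrays were all narrower. These small differences in level and spread were left in the deposited values. Their part in the results was not tested beyond the other normalisations given below. Striatal projection neuron markers were present at high levels, with a mean over 11 genes of 11.67 to 11.78 in Rarb-null arrays and 11.84 to 11.93 in WT arrays.

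The kappa, delta and mu receptor genes and the dynorphin precursor gene were called in Rarb-null accumbens. These receptor genes kept their calls in at least 22 of 23 alternative settings, Pdyn in 9. Of the 7 genes, 3 were called lower (Oprk1, Oprd1 and Pdyn) and 1 higher (Oprm1), where limma called 12% of all genes tested lower and 7.56% higher, 19.6% in all. Oprl1, Penk and Pnoc were not called. All Rarb-null arrays lay on one side of all WT arrays for 4 of the 7 (Oprk1, Oprd1, Oprm1 and Penk), against 11.2% of all genes tested. The median difference was -0.079 over the 7 genes and -0.017 over all genes tested. These genes were chosen with earlier results in view, so the counts describe them and were not tested as a set.

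**Figure D1:**
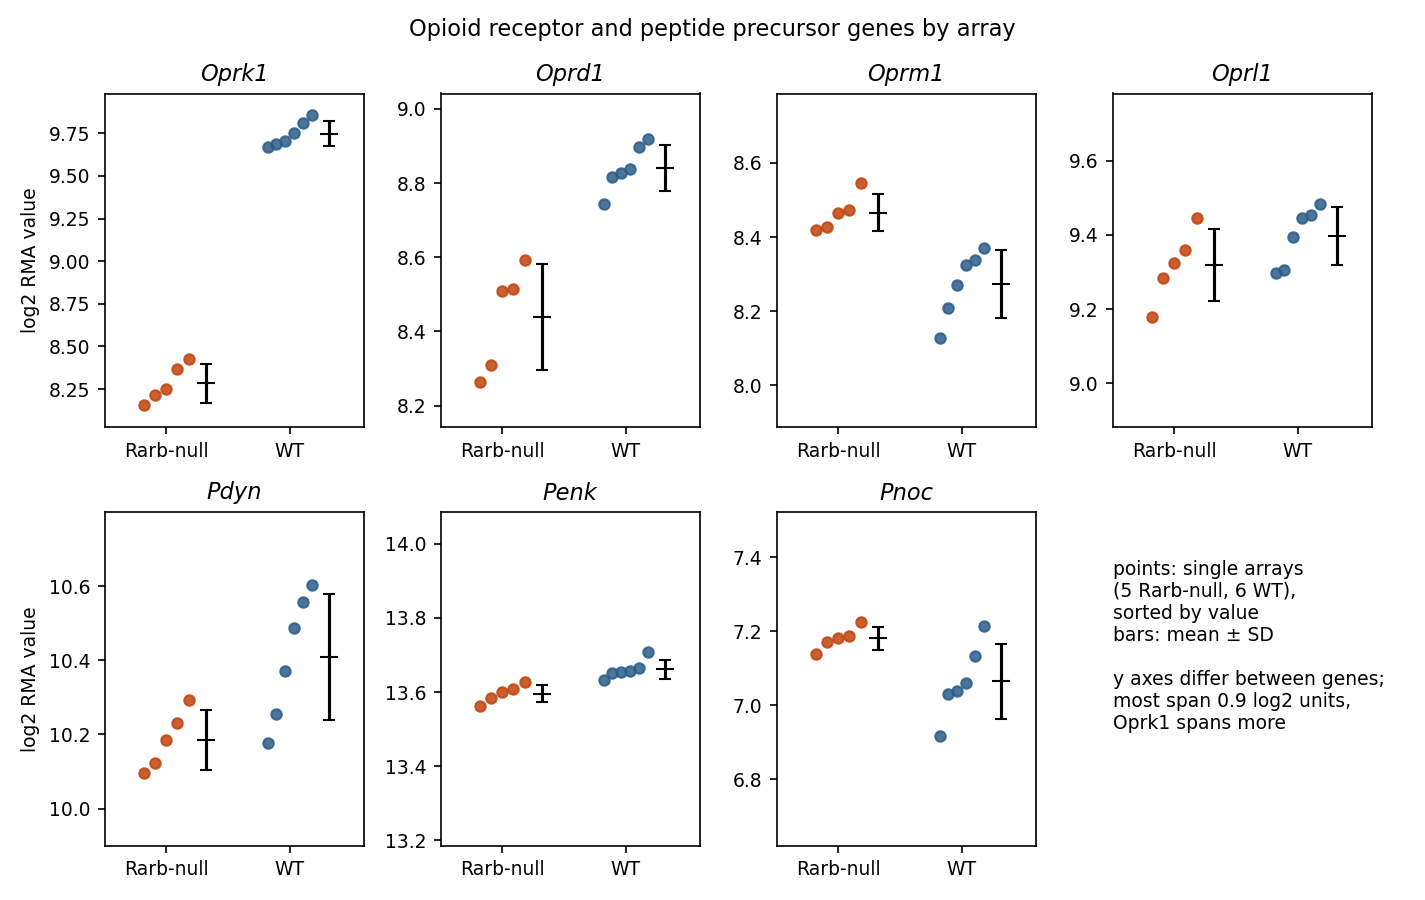
Log2 RMA value of each opioid gene by array, Rarb-null left of WT; points are arrays, bars are mean ± SD, and the y axes differ in position, with a wider span for Oprk1. All 5 Rarb-null arrays lay below all WT arrays for Oprk1, Oprd1 and Penk and above them for Oprm1, whereas the groups overlapped for Oprl1, Pdyn and Pnoc.

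Oprk1, the kappa receptor gene, had the largest change of the family. Its values were 8.25, 8.15, 8.37, 8.22 and 8.43 in Rarb-null replicates 1 to 5, and in WT arrays they ran from 9.67 to 9.86 with a median of 9.73. The groups lay more than 1 log2 unit apart. Means were 8.28 ± 0.11 in Rarb-null and 9.75 ± 0.073 in WT arrays (SD, n = 5 and 6). The difference was -1.46 (SE 0.052, limma adjusted p = 1.28e-09), a 2.76-fold lower signal, or 36.3% of the WT signal with a 95% interval of 33.6 to 39.2%. By p it stood at rank 3 of the 11963 genes. An exact two-sided permutation test gave p = 0.00216, the lowest that the 462 possible array splits can give.

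Oprd1, the delta receptor gene, was lower by less. It read 8.26, 8.51, 8.51, 8.31 and 8.59 in Rarb-null replicates 1 to 5, against 8.74 to 8.92 with a median of 8.83 in WT arrays. Rarb-null replicates 1 and 4 were the lowest of the 11 arrays, and the mutant arrays spread more widely than the WT arrays (8.44 ± 0.14 in Rarb-null, 8.84 ± 0.063 in WT). The difference was -0.40 (SE 0.058, limma adjusted p = 0.000377; exact permutation p = 0.00216), a signal of 75.7% of WT with a 95% interval of 69.4 to 82.5%. The RefSeq table holds 1 window around its transcription start (250 bases before and 50 after, GRCm38.p6). It is shown because Oprd1, Oprm1 and Pdyn are the called genes with an entry, and a window's letters let a reader see what stands beside the start of a gene that moved. It is the richest in G and C of the 9 windows that 4 of the 7 genes have in this table, at 79.3% (98.7th percentile of 32851 windows), and the capitals mark 4 GC boxes (GGGCGG on either strand), a motif held by 35.7% of all windows.
Oprd1, chr4:132144437-132144736, minus strand: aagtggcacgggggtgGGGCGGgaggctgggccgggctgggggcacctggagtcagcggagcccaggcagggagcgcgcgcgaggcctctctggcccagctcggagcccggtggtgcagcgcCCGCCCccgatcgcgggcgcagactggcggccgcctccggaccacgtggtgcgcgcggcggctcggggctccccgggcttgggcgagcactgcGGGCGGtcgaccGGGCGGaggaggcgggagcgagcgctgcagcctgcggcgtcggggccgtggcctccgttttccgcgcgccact

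Oprm1, the mu receptor gene, was the member called higher. Its values were 8.42, 8.47, 8.55, 8.47 and 8.43 in Rarb-null replicates 1 to 5, against 8.13 to 8.37 with a median of 8.30 in WT arrays. Every mutant array lay above the highest WT array, by a narrow gap. Means were 8.47 ± 0.051 in Rarb-null and 8.27 ± 0.091 in WT arrays, a difference of 0.19 (SE 0.045, limma adjusted p = 0.0102; exact permutation p = 0.00433), or 1.14-fold. When oligodendrocyte marker level entered as a covariate the difference was 0.15 and the call was lost (adjusted p = 0.122). The table holds 3 windows for this gene, and the one farthest upstream is shown, in which none of the motifs searched was found.
Oprm1, chr10:6758343-6758642, plus strand: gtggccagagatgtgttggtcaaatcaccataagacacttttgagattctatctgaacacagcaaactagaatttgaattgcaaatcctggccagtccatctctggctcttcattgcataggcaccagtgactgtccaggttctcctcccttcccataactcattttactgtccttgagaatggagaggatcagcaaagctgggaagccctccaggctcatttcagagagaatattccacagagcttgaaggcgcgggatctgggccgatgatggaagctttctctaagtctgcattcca

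Oprl1, the nociceptin receptor gene, was not called. It read 9.18, 9.36, 9.32, 9.28 and 9.44 in Rarb-null replicates 1 to 5, against 9.30 to 9.48 with a median of 9.42 in WT arrays. The groups overlapped, with 2 Rarb-null arrays below the lowest WT array. The difference was -0.079 with a 95% interval of -0.19 to 0.029 (limma adjusted p = 0.276; exact permutation p = 0.169). This interval excludes a change as large as that of Oprd1, though it does not show that the gene was level.

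Pdyn, the dynorphin precursor gene, was called lower by a margin that did not survive most of the alternatives. It read 10.18, 10.12, 10.23, 10.29 and 10.10 in Rarb-null replicates 1 to 5, against 10.18 to 10.60 with a median of 10.43 in WT arrays. WT replicates 6 (10.18) and 1 (10.26) lay among the mutant values, and the other WT arrays lay above all of them. Means were 10.19 ± 0.080 in Rarb-null and 10.41 ± 0.17 in WT arrays, a difference of -0.22 (SE 0.073, limma adjusted p = 0.0464; exact permutation p = 0.0303), or 85.7% of the WT signal with an interval of 76.8 to 95.5%. The call was lost when Rarb-null replicate 1, 2, 3 or 5 or WT replicate 2, 3, 4 or 5 was left out (-0.23 to -0.18, limma adjusted p 0.0675 to 0.102). It was also lost with arrays centred (-0.18, adjusted p = 0.093). Centring took from each array its median over the genes tested, not over all probe sets. This moved the median difference of the genes tested from -0.017 to 0.023. Pdyn lost its call too once cortical marker level entered as a covariate (-0.21, adjusted p = 0.246). With that of oligodendrocytes in its place the difference was larger, at -0.38 (adjusted p = 0.00676). The more upstream of its 2 windows is shown, again with none of the motifs searched.
Pdyn, chr2:129699889-129700188, minus strand: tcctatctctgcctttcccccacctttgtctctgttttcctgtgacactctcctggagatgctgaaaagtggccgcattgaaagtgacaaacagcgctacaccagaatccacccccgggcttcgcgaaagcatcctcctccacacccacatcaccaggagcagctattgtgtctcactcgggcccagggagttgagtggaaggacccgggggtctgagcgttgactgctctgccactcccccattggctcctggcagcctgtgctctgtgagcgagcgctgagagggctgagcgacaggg

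The motifs searched on both strands were the retinoid receptor half-site AGGTCA, its variant AGTTCA, the direct repeats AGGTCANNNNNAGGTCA and AGGTCANNAGGTCA, the cyclic AMP element half-site TGACG, the GC box and the TATA box TATAAA. The half-site AGGTCA was in 16.3% of all windows and in 0 of the 9 windows of the 4 members with an entry (Oprd1, Oprm1, Oprl1 and Pdyn), of which 2 Oprm1 windows overlap almost wholly. TGACG was likewise in 0 of 9, against 20.8% of all windows. AGTTCA was in 1 of the 9, a window of Oprl1, against 14%, and TATAAA was in another window of Oprl1, against 13.6%. Each direct repeat, which holds the half-site within it, was in 3 of the 32851 windows and in 0 of the 9. Other forms of the half-site, such as GGGTCA, were not searched, so these counts do not show that a window lacks a retinoid half-site. A window of 300 bases says nothing about elements outside it.

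Penk, the enkephalin precursor gene, differed little but without overlap. It read 13.61, 13.60, 13.59, 13.63 and 13.56 in Rarb-null replicates 1 to 5, against 13.63 to 13.71 with a median of 13.66 in WT arrays. Every mutant array lay below every WT array, and the spread within a genotype was the smallest of the family (SD 0.024 in Rarb-null and 0.026 in WT arrays). The difference was -0.065 (SE 0.027), or 95.6% of the WT signal with an interval of 91.8 to 99.5%. Limma gave an unadjusted p of 0.0302 and an adjusted p of 0.1025, and the exact permutation test, which uses this gene's own spread alone, gave p = 0.00216. Penk was called with a trended and robust variance (adjusted p = 0.016) and with cyclic loess normalisation (-0.085, adjusted p = 0.0329). It held rank 3 from the top of 19938 genes on all 11 arrays, so that a repeated quantile normalisation gives it the same value on each and a difference of 0. Whether this place also limited the spread and the difference of Penk in the deposited values was not tested.

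Pnoc, the nociceptin precursor gene, lay near the filter on dim genes, which was set at 6.99. It read 7.14, 7.23, 7.19, 7.18 and 7.17 in Rarb-null replicates 1 to 5, against 6.92 to 7.22 with a median of 7.05 in WT arrays. Of the WT arrays, replicate 5 was as high as the mutants and replicate 3 (7.13) just below them. The difference was 0.12 (SE 0.046, limma adjusted p = 0.0913; exact permutation p = 0.0346), with a 95% interval of 0.017 to 0.21. Without WT replicate 5 it was 0.15 and was called (adjusted p = 0.0307), as it was with arrays centred (0.16, adjusted p = 0.0375). With repeated quantile normalisation the difference was smaller, at 0.067 (limma adjusted p = 0.24). Pnoc lies on the chromosome of Rarb, 541 protein-coding genes away, and the other 6 members lie on other chromosomes. Alleles of the strain that carried the mutation travel with Rarb on that chromosome, and whether they reach Pnoc was not tested.

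**Figure D2:**
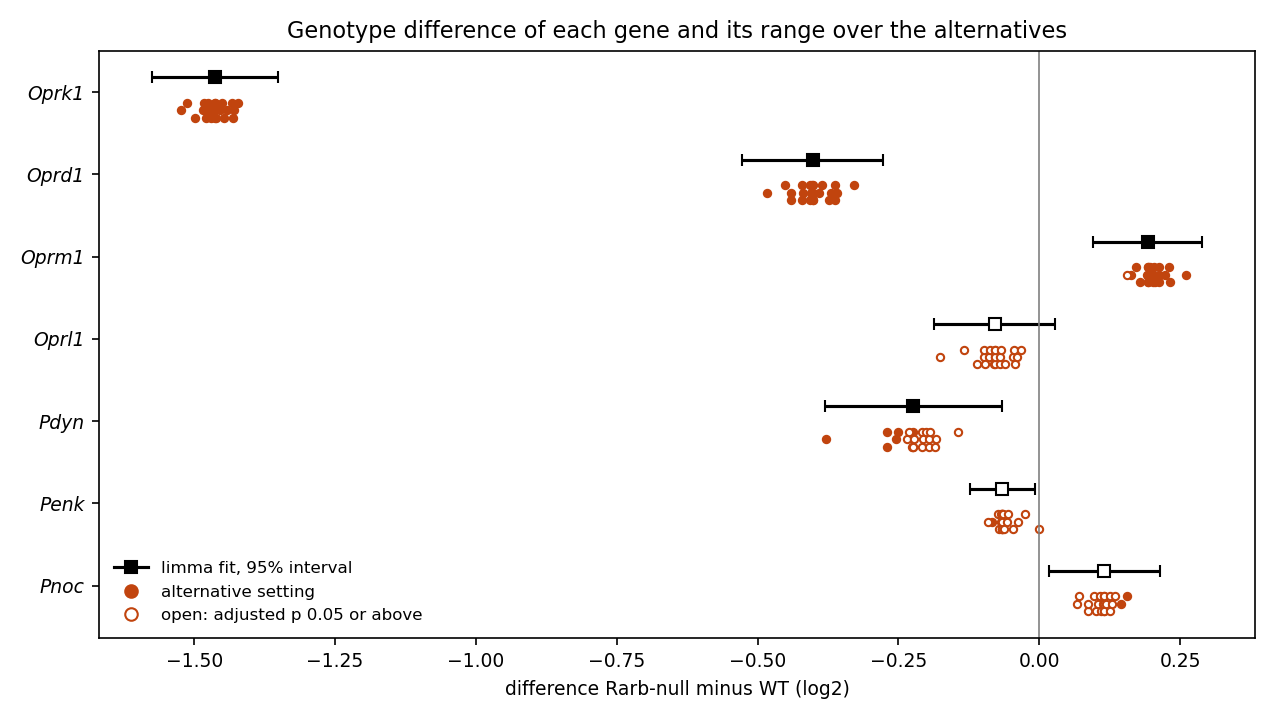
Difference between Rarb-null and WT (log2) for each gene: squares with 95% intervals are the limma fit, circles below them, staggered to limit overlap, are the alternative settings, and open symbols have an adjusted p of 0.05 or above. Oprk1 (-1.52 to -1.42) and Oprd1 (-0.48 to -0.33) stayed filled in all 23 settings, Oprm1 in 22 and Pdyn in 9.

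Oprk1 fell relative to every other member. In each array the log2 value of the other gene was taken from that of Oprk1, and the shift of this quantity between genotypes was tested for 6 pairs. Oprk1 minus Oprd1 was -0.15 ± 0.13 in Rarb-null and 0.91 ± 0.096 in WT arrays, a shift of -1.06, the smallest of the pairs. Against Pdyn, its ligand precursor, the shift was -1.24 and against Oprm1 -1.66, the largest. Each of the 6 exact permutation tests gave p = 0.00216, the smallest value possible, which is also the Benjamini-Hochberg value over the 6 pairs. Oprk1, the member with the largest change, enters all 6 tests. The equal p-values follow from its wide gap between genotypes and are not 6 separate pieces of evidence. Leaving out any array kept the direction of all 6.

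Over the 11 arrays the genes with a pattern most like that of Oprk1 were Brinp1 (Pearson r = 0.991), Upb1 (0.991) and Mchr1 (0.990), the last of which encodes the receptor of melanin-concentrating hormone. All 3 genes were called lower (-0.69, -1.24 and -0.73), so the gap between genotypes enters these values. With the genotype means taken out, Tex2 (0.923), Atxn1l (0.908) and Slc39a9 (0.907) were nearest, and none of these was called. All the correlations are over the same 11 arrays. They were picked as the highest among all genes tested, which raises such values without any link to Oprk1, so they are given as descriptions.

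Among genes that make or break down opioid peptides, 1 of each list was called, both lower, where limma called 12% of all genes tested lower. Pcsk1, the prohormone convertase that makes early cuts in peptide precursors, fell by 0.33 (SE 0.077, limma adjusted p = 0.0103), the only call among 6 processing genes tested. Cpe (0.0062), the carboxypeptidase that trims the cut peptides, Scg5 (-0.075), whose product is a chaperone of a related convertase, and the cathepsin gene Ctsl (-0.14) were not called. Mme, whose product neprilysin degrades enkephalins, read 8.19 ± 0.16 in Rarb-null and 9.72 ± 0.11 in WT arrays (SD), a difference of -1.53 (SE 0.072, adjusted p = 1.69e-08) and the only call among 6 breakdown genes tested. The median of the 6 was -0.080. Ace (0.12) and Nln (-0.13), further peptidase genes of this list, were not called. The processing gene Pcsk2 and the breakdown gene Lnpep were not measured by a probe set with 1 symbol. The breakdown gene Anpep was under the filter, so the 2 lists were not tested in full. Without WT replicate 6 limma called 2 processing genes lower, without WT replicate 3 it called 1 higher, and without Rarb-null replicate 1 it called 1 breakdown gene higher. The call of Pcsk1 was lost with the oligodendrocyte covariate (-0.28, adjusted p = 0.112).

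**Figure D3:**
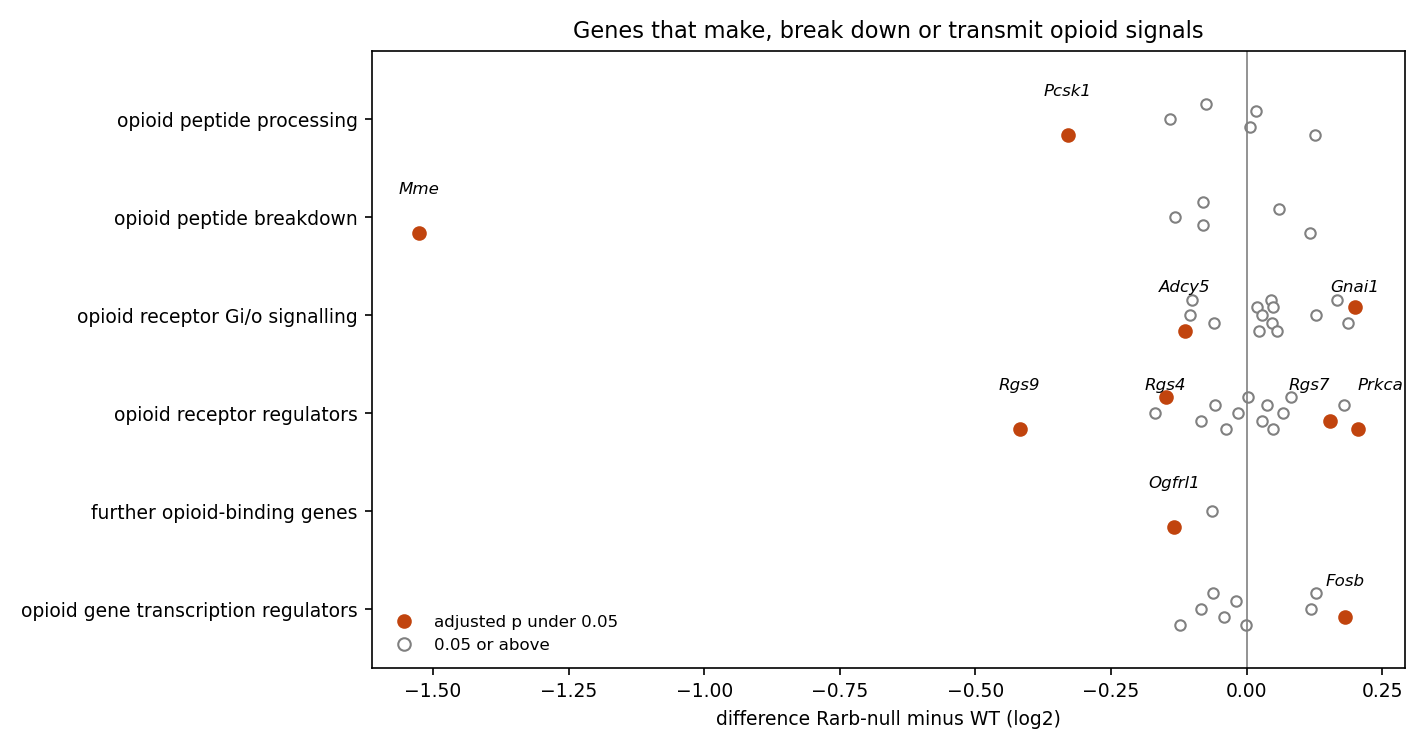
Difference between Rarb-null and WT (log2) for the tested genes of 6 lists around the opioid receptors; filled points have an adjusted p under 0.05 and carry their names. Mme stands apart at -1.53, followed by Rgs9 at -0.42 and Pcsk1 at -0.33, and most other genes lie near 0.

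Of 15 tested genes of inhibitory G protein signalling, which all the receptors use, 1 rose and 1 fell. Over all genes tested 19.6% were called. Gnai1, an inhibitory G protein alpha subunit gene, rose by 0.20 (SE 0.034, limma adjusted p = 0.00145) and Adcy5, the main striatal adenylyl cyclase gene, fell by 0.11 (adjusted p = 0.0451). The call of Adcy5 was lost without Rarb-null replicate 1, 2, 3 or 5 or WT replicate 3, 4, 5 or 6 (adjusted p 0.0549 to 0.1004), with arrays centred (-0.074, adjusted p = 0.175) and with the cortical covariate (-0.043, adjusted p = 0.608). The median was 0.046. Kcnj3 (0.19) and Kcnj9 (0.13), which encode opioid-gated potassium channel subunits, and the calcium channel genes Cacna1a (0.049) and Cacna1b (0.046) were not called, nor was the G protein beta subunit gene Gnb5 (-0.10).

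Among 16 tested regulators of the receptors 2 fell and 2 rose, with a median of 0.016, beside 19.6% of all genes tested called. Rgs9, which speeds the switching-off of G proteins in striatal neurons, fell by 0.42 (SE 0.039, limma adjusted p = 1.02e-05), and Rgs4 by 0.15 (adjusted p = 0.0101). Prkca, a protein kinase C gene, rose by 0.21 (adjusted p = 0.00547), and Rgs7, named after its value was seen, by 0.15 (adjusted p = 0.0164). With cortical marker level as the covariate 1 fell and 0 rose, with the oligodendrocyte marker level 0 rose, and with arrays centred 2 fell and 5 rose. The arrestin genes Arrb1 (0.067) and Arrb2 (-0.039) were not called. Of 2 further genes, Ogfrl1, a relative of the opioid growth factor receptor gene Ogfr, fell by 0.13 (adjusted p = 0.0372), a call lost without Rarb-null replicate 2, 3 or 4 or WT replicate 1, 4, 5 or 6 (adjusted p 0.0548 to 0.09), with arrays centred (-0.094, adjusted p = 0.0684) and with either covariate (adjusted p 0.116 and 0.166). Pomc, the endorphin precursor gene, was under the filter.

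Of 9 tested regulators of opioid gene transcription 1 rose and 0 fell, beside 7.56% of all genes tested called higher and 12% lower. Fosb, the gene of a transcription factor that accumulates in the accumbens after repeated drug exposure, rose by 0.18 (SE 0.049, limma adjusted p = 0.0213). The call was lost without Rarb-null replicate 5 (0.15, adjusted p = 0.0507), when WT replicates 3 and 4 were dropped with it (adjusted p = 0.0723), with the cortical covariate (0.11, adjusted p = 0.31) and with the oligodendrocyte covariate (0.13, adjusted p = 0.206). Kcnip3, which encodes a repressor of Pdyn, gave 0.12 (adjusted p = 0.0688) and Creb1 -0.12 (adjusted p = 0.0594), neither called. Without WT replicate 2 the list had 2 rises and 1 fall. It had 1 fall when Rarb-null replicate 1 was left out and 2 rises when replicate 2 was.

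Oprm1 and Pdyn are also landmarks of striosomes, the patches of striatum rich in mu receptor that are embedded in a larger matrix. Of 7 striosome markers tested, 5 fell and 0 rose, with a median of -0.27. Beside this count and those of the marker lists below, limma called 12% of all genes tested lower and 7.56% higher. The substance P precursor gene Tac1 (-0.39, SE 0.037), Nnat (-0.42, SE 0.043) and Foxp2 (-0.29, SE 0.041) had the smallest p. The mean level of the 7 was 10.70 to 10.73 in Rarb-null and 10.89 to 10.95 in WT arrays. Of 7 matrix markers 4 rose and 2 fell, with a median of 0.16, led by the calcium buffer gene Calb1 (0.93, SE 0.067), Gda (0.32, SE 0.053) and Id4 (0.37, SE 0.079). The 2 falls, Rasgrp2 (-0.27) and Sv2b (-0.17), were 1 without Rarb-null replicate 2, 3 or 4 or WT replicate 2, 5 or 6, with arrays centred and with either covariate. The 4 rises were 2 with the oligodendrocyte covariate.

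Most Drd2 neuron markers and some Drd1 neuron markers, of the classes that make the peptides, fell. Of 6 tested Drd2 neuron markers 5 fell, with a median of -0.30, among them Gucy1a1 (-0.51, SE 0.033), which encodes a guanylyl cyclase subunit, Gpr52 (-0.44) and Drd2 (-0.31). Of 8 Drd1 neuron markers 3 fell and 1 rose, with a median of -0.13, among them Slc35d3 (-0.60), Tac1 and the rise of Ebf1 (1.16). Some lists share genes. Tac1 is also counted among the striosome falls, and Rgs9 and Adcy5 are counted both in the opioid lists above and in projection neuron identity. Of 11 genes of projection neuron identity 6 fell, including Rgs9, Pde10a (-0.42) and Gad1 (-0.18); 2 fell with the cortical covariate and 3 without the arrays with the lowest and highest cortical level (WT replicates 3 and 4 and Rarb-null replicate 5).

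Markers of other cells in the punches moved with genotype too, and their part in the results above was not tested beyond the covariates given. Of 10 tested cortical neuron markers 4 rose (median 0.44; mean level 8.73 to 9.34 in Rarb-null and 8.12 to 8.82 in WT arrays), led by Lamp5 (0.66), Cux2 (0.18) and Emx1 (0.22), while Slc17a7 (0.90), the vesicular glutamate transporter gene of cortical neurons, was not called. Without WT replicate 2, whose level was the highest of the WT arrays, 8 rose. With this level as a covariate Oprk1 gave -1.51, Oprd1 -0.48 and Oprm1 0.26, all called, and without the 3 arrays just named they gave -1.47, -0.45 and 0.23, again called. Of 9 oligodendrocyte markers 4 fell, led by Opalin (-0.35), Mag (-0.23) and Mal (-0.19) (median -0.14; 9.42 to 9.67 in Rarb-null, 9.57 to 9.78 in WT), and the count was 1 with arrays centred and without Rarb-null replicate 1 or 4 or WT replicate 1, 5 or 6. It was 2 when Rarb-null replicate 3 or 5 or WT replicate 4 was left out.

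Pnoc is a gene of GABAergic interneurons in many forebrain regions. Of 5 interneuron markers tested 3 rose (median 0.18; 10.20 to 10.49 in Rarb-null, 9.84 to 10.13 in WT): Npy (0.40), Th (0.18) and Calb2 (0.54). The rises were 1 without Rarb-null replicate 1, 2, 3 or 5, 1 without the same 3 arrays and 0 with the cortical covariate, where Calb2 gave -0.033. Of 4 cholinergic markers 3 fell (median -0.21), led by the choline transporter gene Slc5a7 (-0.42), and 1 fell with either covariate. Of 8 astrocyte markers 3 fell and 1 rose (median -0.12), with Gja1 at -0.17, Aldh1l1 at -0.26 and Aldoc at -0.11; the rise, Gfap at 0.27, was lost without Rarb-null replicate 2, 3, 4 or 5, without WT replicate 1, 3, 4 or 6 and with either covariate. Limma called 0 of 6 microglia markers and 0 of 7 endothelial markers, with 2 and 1 genes at an unadjusted p under 0.05, as had 4220 of all 11963 genes, among them Cx3cr1 (0.10) and Tek (-0.10).

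**Figure D4:**
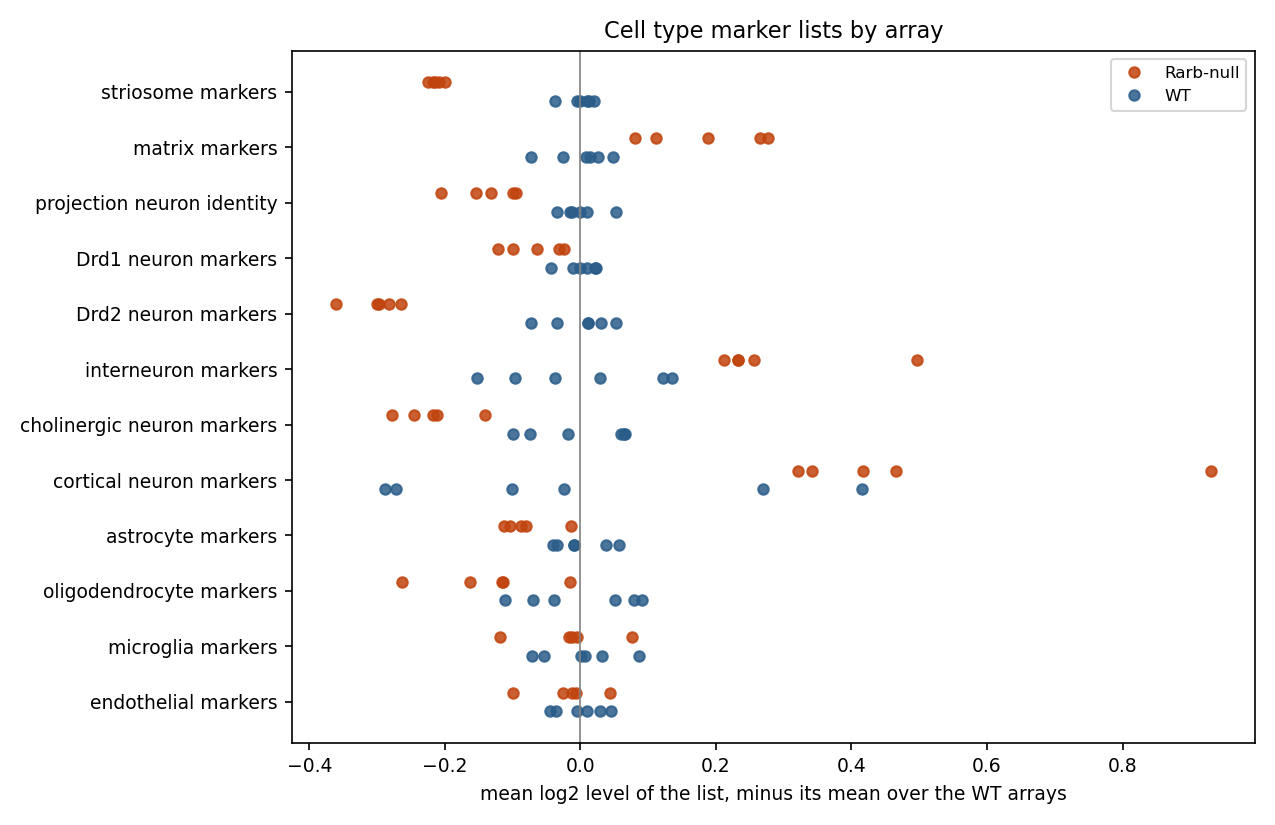
Mean log2 level of each marker list by array, minus its mean over the 6 WT arrays; points are arrays, with Rarb-null above WT in each row. The genotypes stood apart for striosome, matrix, projection neuron, Drd2, interneuron and cholinergic markers, while cortical markers were spread most widely and Rarb-null replicate 5 was highest.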

How the data were processed

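Total RNA (100 ng per mouse) from nucleus accumbens punches of 5 Rarb-null and 6 WT mice was hybridised to 1 array each. The deposited log2 values were made by the authors with RMA, per the labels. The log base is not stated and was taken as 2 from the range of the values. RMA software, annotation and build are not given in the sources used here, and no scan date or batch was available here. Genes were named through the platform annotation, of which 21698 of 21789 probe sets with 1 symbol matched RefSeq by Entrez identifier; 1621 of 35556 probe sets had several symbols and 12146 were unlisted, and neither kind was used. Each gene was read from its probe set of highest mean, and genes above the 40th percentile of mean level (log2 6.99) were tested.

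Genotypes were compared with limma 3.58.1 (lmFit, eBayes, no covariate) in R 4.3.3, with Benjamini-Hochberg adjustment over 11963 genes, and with two-sided exact permutation tests over all 462 splits of the arrays. Python 3.11.15 and matplotlib 3.10.9 were used for tables and figures. On data simulated for this comparison with 11963 genes, the test recovered 8% of genes changed by 0.1 (log2), 52% at 0.2, 98% at 0.5 and 100% at 1, with 1 false call. This was 1 run with 50 genes changed at each size and noise drawn independently for each gene. Variation shared between genes, as in cortical marker level, was not simulated. A far smaller share of genes was changed than the 19.6% called in the real arrays, and the adjusted p depends on that share. For both reasons these rates may not hold for the real arrays. Alternatives were other filters and normalisations, the mean of probe sets, array weights, a trended robust variance, marker covariates, the replicate number as a block and leaving out arrays; cyclic loess and leaving out 3 arrays of extreme cortical marker level were added after the data were seen. The number of arrays limits the precision. Besides the members and Rarb, the text names up to 3 genes of each list with the smallest p and the 3 genes most like Oprk1 by each correlation; Cpe, Kcnj3, Kcnj9, Cacna1a, Cacna1b, Arrb1, Arrb2, Rgs7, Rasgrp2, Sv2b, Slc17a7 and Gfap were named after their values were seen. Members and lists were chosen with earlier results of these data known.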

Additional observations from a re-analysis of the deposited data

Results flagged for a closer look

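None of the opioid genes had an array that stood apart from its group. Among 130 gene and genotype groups checked with Dixon's ratio, 5 held such an array, where chance marks about 5% of groups. Cux2 read 8.37 in Rarb-null replicate 1, against 8.43 to 8.46 in the other Rarb-null arrays. Ebf1 read 8.46 in WT replicate 6, against 7.85 to 8.03 in the other WT arrays. Gad1 read 11.9 in WT replicate 6, with the other WT arrays at 11.99 to 12.03. Nnat read 11.95 in WT replicate 1, with the others at 12.08 to 12.15. For Slc18a3, WT replicate 6 stood at 8.53 and the remaining WT arrays at 8.79 to 8.91.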

How the results depend on the processing

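Over 23 alternatives, 11 of them leaving out 1 array, the opioid genes gave 160 values, of which 141 stayed on their side of the threshold, 15 lost a call and 4 gained one. Oprk1 and Oprd1 were called in all 23 and Oprl1 in 0. Oprm1 lost its call with the oligodendrocyte covariate (0.15). Pdyn lost its call with arrays centred (-0.18), the cortical covariate (-0.21), cyclic loess (-0.20), no filter (-0.22), repeated quantile normalisation (-0.20) and without the 3 arrays at the extremes of cortical level (-0.14), and ran from -0.27 to -0.18 when 1 array was left out. Penk was called with cyclic loess (-0.085) and a trended robust variance (-0.065). Pnoc was called with arrays centred (0.16), ran from 0.086 to 0.15 when 1 array was left out, and was not tested under the stricter filter. The cause of these changes was not tested.

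Members called higher were 2 with arrays centred, 0 with the oligodendrocyte covariate and 1 to 2 with 1 array left out. Against 1436 genes lower and 905 higher, limma called 939 lower and 1677 higher with arrays centred, 763 and 350 with the cortical covariate, 748 and 301 with the oligodendrocyte covariate, and 874 and 473 without the 3 arrays. The stricter filter, with fewer genes tested, gave 510 higher, and leaving out 1 array gave 584 to 1010 higher. Calb2 turned to -0.033 with the cortical covariate and Itm2a to -0.0086 with the oligodendrocyte covariate.

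Deviations of same-numbered arrays correlated at 0.0557 to 0.425, all above 0 but not all above the 0.1 set for treating the numbers as pairs, and 2 of 5 Rarb-null arrays correlated best with their own number. With the replicate number as a block, the differences rest on 10 arrays, since WT replicate 6 has no partner, and equal those without it. Limma then called 1793 genes lower and 1079 higher, against 1239 and 709 without that array and no block. Oprk1 gave -1.47, Oprd1 -0.41, Oprm1 0.21 and Pdyn -0.27, all called, and 9 of 10 cortical markers rose.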
